A study of Mus musculus with 12 samples.

Results

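Mitotic entry, the spindle checkpoint, the kinetochore and the spindle were followed here through 57 listed mouse genes, out of 26301 genes in a count table of liver RNA. The list was applied by matching each symbol to its Entrez identifier. It found all 57 genes, and all of them passed the filter on low counts. RNA was sequenced from 12 mouse livers and liver tumors in 3 groups of 4. The first group were livers of wild-type mice, labelled control liver. The second group, labelled DKO, were spontaneous liver tumors of Alb-Cre mice with conditional knockout of E2f7 and E2f8, the atypical E2F repressors. The third group, labelled TKO, were spontaneous tumors of Alb-Cre mice in which Rb1, the retinoblastoma gene, was also deleted. All mice were part of an ageing cohort on an FVB background and were killed when their health declined, and the labels give their age only as adult. The albumin promoter that drives the Cre recombinase acts in hepatocytes, so the blood, immune, endothelial and connective tissue cells of a tumor are not targeted. The controls differ from both tumor groups in genotype and in not being tumor tissue, and these differences cannot be told apart. DKO and TKO name the libraries by their labels throughout.

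As background, a cell enters mitosis when cyclin A and cyclin B activate the kinase CDK1, helped by CDC25 phosphatases, Polo-like kinase 1 and Aurora A. Chromosomes are then compacted by condensin and topoisomerase II, caught by spindle microtubules at the kinetochore, and held until the spindle checkpoint is satisfied, when CDC20 and the anaphase-promoting complex release separase. Most of these genes are transcribed in late S phase and G2 and repressed in resting cells through the RB and E2F network and the DREAM and MuvB complexes. Adult hepatocytes rarely divide, so these messages are scarce in resting liver.

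Library totals ran from 9165812 to 16424973 counts. The 57 mitotic genes together took 0.0116 to 0.0171% of the counts in control livers, 0.0201 to 0.0449% in DKO tumors and 0.0159 to 0.0360% in TKO tumors. The lowest count of any of them in any library was 1, in control liver 2, so the scarcest were measured with large counting error. The filter on low counts kept all 57, but members scarce in control livers could pass it through the tumors alone. Nuf2 did, with 3 to 7 counts per control liver. The higher tumor level of such members is partly what let them be tested. In the check of the labels, Rb1 lay at 3.21 to 5.47 CPM (the TMM-normalized count on the usual common library scale) in the TKO tumors and at 6.52 to 11.3 CPM in the other 8 libraries. E2f7 had 4 to 24 counts in each library, and E2f8 lay at 4.52 to 8.97 CPM in controls, 7.59 to 45.6 CPM in DKO tumors and 12.3 to 52.2 CPM in TKO tumors. Counts over a whole gene do not show whether single exons are missing, so they check nothing about the E2f7 and E2f8 deletions. All 8 hepatocyte markers had at least 4240 counts in every library. The share of all counts taken by albumin was 6.57 to 10.1% in controls, 11.9 to 22.7% in DKO tumors and 4.82 to 18.9% in TKO tumors, and the median log2 fold change of the members in DKO tumors was 1.40 with TMM and 1.41 with total counts as the scaling. In the lists of other cell types, summed CPM of the 6 B cell and plasma cell markers ran from 12.5 to 29.8 in controls, 3.83 to 56.5 in DKO tumors and 5.79 to 22.3 in TKO tumors. For the 7 T and NK cell markers these ranges were 3.19 to 10.9, 3.12 to 10.5 and 7.24 to 10.9, for the 7 macrophage markers 168 to 434, 70.2 to 367 and 121 to 448, and for the 6 neutrophil markers 3.19 to 5.71, 2.53 to 13.2 and 1.87 to 8.67. Of these markers Cd3d and Ly6g were at 0 in 1 library each, Mpo in 2 and Elane in 3. Summed endothelial markers ran from 112 to 173 CPM in controls, 138 to 199 in DKO and 152 to 286 in TKO tumors, stellate and fibroblast markers from 231 to 326, 139 to 493 and 184 to 342, and cholangiocyte markers from 28.6 to 49.4, 24.4 to 108 and 31.2 to 54.9. Of the 48 markers tested, edgeR called none in DKO or TKO tumors against controls. At an unadjusted p under 0.05, 3 were higher and 3 lower in DKO tumors and 2 higher and 1 lower in TKO tumors, and DESeq2 called 2 endothelial markers, Lyve1 and Pecam1, higher in DKO tumors and none in TKO tumors. The albumin share and these cell types vary beside the members, and the part of these cells in the values below was not tested. In bulk tissue, more dividing cells and more of the message per cell cannot be told apart.

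Most promoters of the mitotic genes hold the same short elements, and 4 are shown to make them visible. They belong to Ccnb2, Mki67 and Hmmr, which rose in a comparison below, and to Haus4, the member that fell. Each runs from 250 bases before the RefSeq transcript start to 30 bases after it, 5′ to 3′ on the gene's strand, in build GRCm38.p6. All 4 genes lie on the minus strand, and the windows are chr9:70421525-70421804 for Ccnb2, chr7:135716350-135716629 for Mki67, chr11:40733408-40733687 for Hmmr and chr14:54554332-54554611 for Haus4. Capitals mark the cell cycle genes homology region (CHR, searched as TTTGAA or TTCGAA), the element through which MuvB complexes bind, and the CCAAT box (CCAAT), the site of the factor NF-Y, each on both strands, so that ATTGG is a CCAAT box on the other strand.
Ccnb2: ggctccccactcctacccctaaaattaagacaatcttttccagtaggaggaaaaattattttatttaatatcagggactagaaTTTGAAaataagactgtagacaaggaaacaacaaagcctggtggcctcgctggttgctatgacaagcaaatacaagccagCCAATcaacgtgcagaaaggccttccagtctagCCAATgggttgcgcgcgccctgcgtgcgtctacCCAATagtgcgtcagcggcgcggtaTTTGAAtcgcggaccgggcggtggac
Mki67: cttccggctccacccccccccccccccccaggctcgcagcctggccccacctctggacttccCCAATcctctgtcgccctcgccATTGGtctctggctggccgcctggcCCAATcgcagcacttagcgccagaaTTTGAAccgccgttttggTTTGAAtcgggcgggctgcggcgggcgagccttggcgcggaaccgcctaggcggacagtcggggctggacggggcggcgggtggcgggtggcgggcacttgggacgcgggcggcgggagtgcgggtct
Hmmr: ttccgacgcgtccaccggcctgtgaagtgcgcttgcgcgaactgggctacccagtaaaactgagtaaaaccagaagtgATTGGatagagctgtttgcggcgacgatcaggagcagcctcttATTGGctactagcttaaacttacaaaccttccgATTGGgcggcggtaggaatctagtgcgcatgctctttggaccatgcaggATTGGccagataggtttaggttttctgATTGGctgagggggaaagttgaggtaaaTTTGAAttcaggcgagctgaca
Haus4: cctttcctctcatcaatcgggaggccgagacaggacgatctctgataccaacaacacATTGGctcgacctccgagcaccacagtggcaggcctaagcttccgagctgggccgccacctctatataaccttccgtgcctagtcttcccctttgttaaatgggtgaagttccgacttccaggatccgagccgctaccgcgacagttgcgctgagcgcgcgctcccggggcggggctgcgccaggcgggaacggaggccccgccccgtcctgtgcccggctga
In Ccnb2, 3 CCAAT boxes stand 87, 54 and 21 bases before the start, and a CHR begins at base 5 of the transcript, with another CHR 167 bases before the start. The 5 CCAAT boxes of Hmmr, all on the reverse strand, stand 172, 129, 96, 47 and 20 bases before the start and its CHR begins at base 9 of the transcript. Mki67 has CCAAT boxes 188, 166 and 141 bases and CHR matches 116 and 98 bases before the start. Haus4 has 1 CCAAT box, 193 bases before the start, and no CHR in this window.

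Across the list, promoters of 49 of the 57 genes were searched, 52 promoters of 300 bases (250 before and 50 after the start). Promoters on chromosome 18, where Cdc25c lies, were left out for the members. No such step was applied to the shares over tested genes and all promoters. A CHR was found in 36 of the 52, or 69.2%, against 14.3% of the 13272 promoters of tested genes and 19.2% of all 32851 promoters. The CCAAT box was in 75.0% of the members' promoters, 37.6% of those of tested genes and 37.4% of all. Both together were in 61.5% of the members' promoters, 5.77% of those of tested genes and 7.52% of all. An E2F site, searched as TTTGGCGC, TTTCGCGC, TTTCCCGC or TTTGCCGC on both strands, was in 6 of the 52 (11.5%), against 3.75% of the promoters of tested genes and 2.26% of all. In 1 member promoter a CHR and a CCAAT box overlapped, and no other motifs did. The median log2 fold change in DKO tumors was 1.37 over the 35 members with a CHR and 1.22 over the 14 without, and in TKO tumors 1.19 and 0.89. For the CCAAT box it was 1.37 over 36 members with it and 1.32 over 13 without in DKO tumors, and 1.15 and 1.02 in TKO tumors. For the E2F site it was lower in the 6 members with it than in the 43 without, at 1.07 and 1.40 in DKO tumors and 0.65 and 1.18 in TKO tumors. Nuf2, among the most changed members in DKO tumors, has none of these motifs in its window. These matches describe letters in a window and were not tested as sites.

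Most of the mitotic genes had a higher mean in the tumors of both genotypes than in control livers, and the spread among tumors was wide. In DKO tumors 55 of the 57 had the higher mean, with a median log2 fold change of 1.40 over the list against 0.02 over the 13882 genes tested. Plk1, Bub1b, Nuf2, Incenp, Kif2c, Hmmr and Mki67 rose and Haus4 fell at an adjusted p under 0.05 (edgeR's quasi-likelihood test, Benjamini-Hochberg over all genes tested). That is 7 of 57 higher where 1.41% of all tested genes were called higher, and 1 of 57 lower where 1.01% were. At an unadjusted p under 0.05, 43 members were higher, against 12.9% of all tested genes, and 1 was lower, against 11.1%. In 27 members every DKO tumor lay above every control liver (8.87% of all tested genes), and in 1, Haus4, every DKO tumor lay below (7.3%). With DESeq2 27 members were called higher, against 3.41% of the genes it took in, and 1, Haus4, lower, against 2.83%. Its shares here and below are over 23898 genes, all those with any count. That is a wider base than the 13882 of edgeR and holds many scarce genes, so the shares of the 2 tools are not alike. The edgeR count rested on single libraries. It fell to 0 when control liver 2, 3 or 4 or DKO tumor 1, 2 or 4 was left out. It was 1 (Haus4) without control liver 1, 3 (Haus4, Incenp and Kif2c) without TKO tumor 1, and 16 without TKO tumor 3. TKO tumors enter this fit through the filter, the scaling and the 1 estimate of the spread that all groups share. Which of these moved the count was not tested. Here and below, the share of all tested genes called in fits with 1 library left out is not given. The counts from those fits therefore do not set the members apart from other genes. The median log2 fold change stayed between 1.00 and 1.68 in these fits. The edgeR count was also 0 with total counts as the only scaling and with a covariate from sex-linked genes, and 31 with limma voom and sample quality weights. The count of 31 has no share of all tested genes beside it. That covariate was the mean log2 CPM of 4 Y-linked genes minus the log2 CPM of Xist. In all 12 libraries Xist had only 1 to 6 counts, while the summed Y-linked genes lay at 92.4 to 156 CPM. The covariate therefore does not mark a difference in sex and rests on few Xist counts.

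In TKO tumors 55 of the 57 members again had the higher mean, with a median of 1.12 against 0.02 over all tested genes, but none passed edgeR's test after adjustment. This comparison shares its 4 control livers with the DKO one. Over all tested genes edgeR called 0.0864% in TKO tumors, in either direction. Ccnb2 came nearest, with an adjusted p of 0.0915 from edgeR's quasi-likelihood test. At an unadjusted p under 0.05, 31 members were higher and none lower, against 9.94% of all tested genes higher and 6.33% lower. DESeq2 called 4 members higher, Hmmr, Birc5, Mki67 and Ccnb2, against 1.2% of its genes. In 11 members every TKO tumor lay above every control liver (4.38% of all tested genes): Ccnb2, Cdc25b, Bub1b, Bub3, Nuf2, Cenpf, Incenp, Kif18a, Kif22, Mki67 and Cdc20. Without TKO tumor 3, edgeR called 2 members, Ccnb2 (adjusted p 0.0180, over all alternatives 0.00185 to 0.309) and Birc5 (adjusted p 0.0399, over all alternatives 0.0209 to 0.332). The median over the list was 0.69 without TKO tumor 1.

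With the tumors of both genotypes set against the control livers (the mean of the DKO and TKO effects), edgeR called Ccnb2, Bub1b, Nuf2, Incenp and Mki67 higher and Haus4 lower. Those 5 and 1 of 57 stand beside 1.25% of all tested genes called higher and 1.22% called lower. The median log2 fold change was 1.22 over the members and 0.02 over all tested genes, and 43 members were higher at an unadjusted p under 0.05 (12.8% of all tested genes) and 1 lower (10.2%). All 8 tumors lay above all 4 controls in 8 members, against 2.2% of tested genes: Ccnb2, Cdc25b, Bub1b, Bub3, Nuf2, Cenpf, Incenp and Mki67. No member had all 8 tumors below the controls, against 1.46% of tested genes. DESeq2 called 28 members higher, against 3.41% of its genes, and Haus4 lower, against 2.54%. The edgeR count of 6 fell to 0 without any 1 of the 4 control livers, DKO tumor 1 or 2, or TKO tumor 1 or 2. It was 1 without DKO tumor 4 (Mki67) or TKO tumor 4 (Ccnb2) and 23 without TKO tumor 3.

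**Figure D1:**
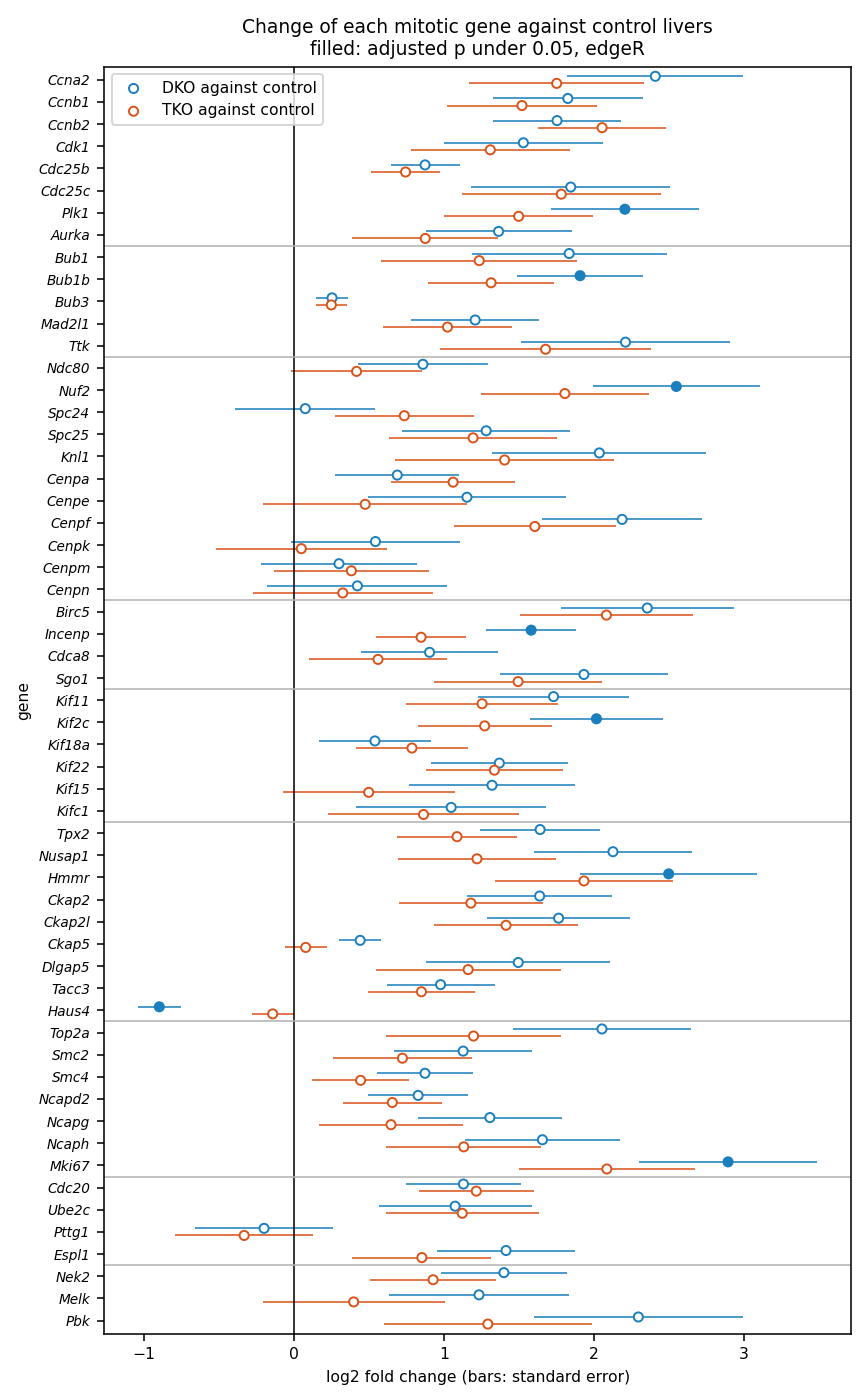
Log2 fold change (x axis) of each of the 57 mitotic genes (y axis, grouped by role between grey lines) in DKO tumors (blue) and TKO tumors (orange) against the 4 control livers, with bars of 1 standard error. Filled points passed edgeR's test at an adjusted p under 0.05: 8 in DKO tumors and 0 in TKO tumors. Haus4 lies farthest left in DKO tumors, with a log2 fold change of -0.90.

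Individual tumors differed in how far the whole list stood from the controls. The mean over the 57 members of log2 CPM minus the control mean was 1.32, 2.05, 0.98 and 0.50 in DKO tumors 1 to 4 and 1.58, 0.66, 0.07 and 1.14 in TKO tumors 1 to 4, against -0.26 to 0.30 in the control livers. TKO tumor 3 was within the range of the controls on this measure and the other 7 tumors were above it. DKO tumor 2 held the highest DKO value for 53 of the 57 members and DKO tumor 4 the lowest for 47. TKO tumor 1 was the highest of its group for 44 and TKO tumor 3 the lowest for 49. The number of members above all 4 control livers was 50, 55, 46 and 28 in DKO tumors 1 to 4 and 53, 33, 12 and 48 in TKO tumors 1 to 4. Between 21.5 and 29.8% of all tested genes were above all controls in a given tumor. The 2 tumors with the lowest list means, DKO tumor 4 and TKO tumor 3, had summed macrophage markers of 70.2 and 448 CPM, the lowest and the highest of all 12 libraries.

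**Figure D2:**
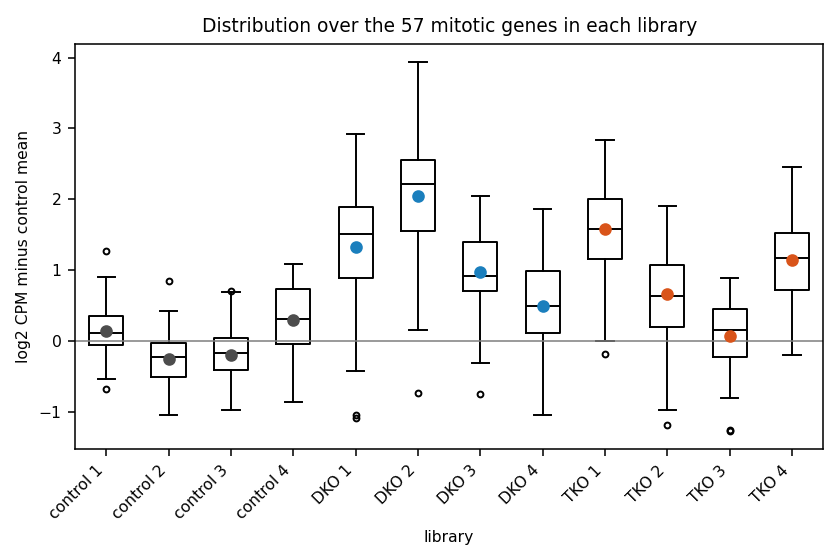
Log2 CPM minus the control mean (y axis) of the 57 mitotic genes in each of the 12 libraries (x axis). Boxes span the quartiles with the median as a line, whiskers reach the farthest value within 1.5 box lengths, open circles are single genes beyond that, and coloured dots are the means (grey control, blue DKO, orange TKO), which run from 0.50 to 2.05 in DKO tumors and from 0.07 to 1.58 in TKO tumors.

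**Figure D3:**
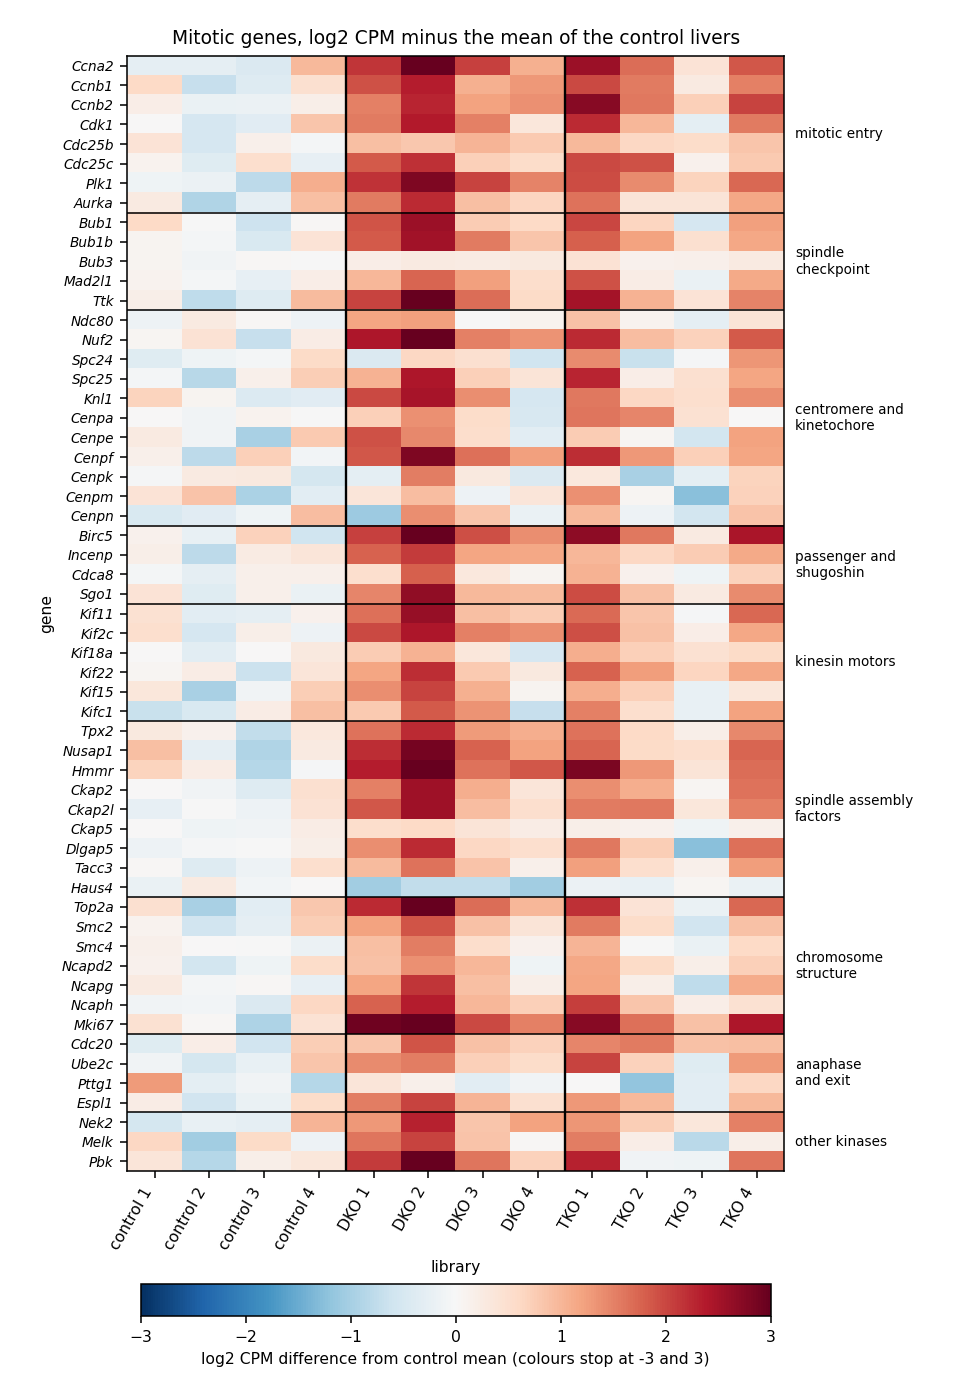
Log2 CPM minus the control mean (colour, red higher and blue lower, with both ends of the scale cutting off larger values) of the 57 mitotic genes (rows, by role) in the 12 libraries (columns). DKO tumor 2 and TKO tumor 1 are the reddest columns of their groups, TKO tumor 3 is close to the controls, and the Haus4 row is blue in all 4 DKO tumors.

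The 8 mitotic entry genes all had higher means in both tumor genotypes, with a median log2 fold change of 1.79 in DKO and 1.51 in TKO tumors. Ccnb2, cyclin B2 (chr9:70255496-70269361 in mm9, minus strand), had 1.19, 0.861, 0.881 and 1.17 CPM in control livers 1 to 4, 3.14, 5.54, 2.54 and 2.83 CPM in DKO tumors 1 to 4 and 7.54, 3.34, 1.76 and 4.55 CPM in TKO tumors 1 to 4. Every tumor exceeded every control liver, and TKO tumor 1 was the highest. Its log2 fold change over both genotypes was 1.90 (SE 0.391), a 3.74-fold difference, with an edgeR adjusted p of 0.0406. Plk1, Polo-like kinase 1, which drives centrosome maturation and mitotic entry (chr7:129302951-129313389 in mm9, plus strand), had 0.519, 0.492, 0.271 and 1.39 CPM in control livers 1 to 4, 3.07, 4.90, 2.78 and 1.89 CPM in DKO tumors 1 to 4 and 2.65, 1.78, 0.997 and 2.24 CPM in TKO tumors 1 to 4. All DKO tumors were above all controls, while TKO tumor 3 was below control liver 4. In DKO tumors Plk1 rose by 2.21 (SE 0.495) on the log2 scale (edgeR adjusted p 0.0469), and in TKO tumors the log2 fold change was 1.50 (SE 0.497) with an edgeR adjusted p of 0.183.

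Ccna2, cyclin A2, which acts in S phase and G2, had 1.48, 1.48, 1.29 and 3.66 CPM in control livers 1 to 4, 8.43, 22.4, 7.87 and 3.95 CPM in DKO tumors 1 to 4 and 11.3, 6.11, 2.45 and 6.94 CPM in TKO tumors 1 to 4. Control liver 4 held more than the other controls, and the DKO tumors were all above it. The log2 fold change in DKO tumors was 2.41 (SE 0.588), with an edgeR adjusted p of 0.0521. Ccnb1, cyclin B1, had 0.816, 0.246, 0.339 and 0.732 CPM in control livers 1 to 4, 2.22, 3.08, 1.18 and 1.42 CPM in DKO tumors 1 to 4 and 2.35, 1.71, 0.614 and 1.64 CPM in TKO tumors 1 to 4. Those are 2 to 11 counts per control liver, and DKO but not TKO tumors all lay above the controls. Cdk1, the kinase these cyclins activate, had 4.08, 2.83, 3.19 and 7.32 CPM in control livers 1 to 4, 12.2, 21.6, 11.9 and 5.19 CPM in DKO tumors 1 to 4 and 19.7, 8.17, 3.30 and 12.2 CPM in TKO tumors 1 to 4. DKO tumor 4 and TKO tumor 3 were below control liver 4, so both tumor groups overlapped the controls. Its log2 fold changes were 1.53 (SE 0.532) in DKO and 1.31 (SE 0.530) in TKO tumors, with edgeR adjusted p of 0.112 and 0.250.

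Cdc25b, one of the phosphatases that remove the inhibitory phosphates from CDK1, had 2.67, 1.35, 2.24 and 1.90 CPM in control livers 1 to 4, 3.83, 3.56, 4.20 and 3.54 CPM in DKO tumors 1 to 4 and 4.04, 3.13, 2.99 and 3.66 CPM in TKO tumors 1 to 4. This was the smallest log2 fold change of the class, with all 8 tumors between 2.99 and 4.20 CPM and all controls at or below 2.67 CPM. The log2 fold change over both genotypes was 0.81 (SE 0.205), with an edgeR adjusted p of 0.0558. Aurka, the Aurora A kinase of the centrosome, had 1.56, 0.615, 1.02 and 2.49 CPM in control livers 1 to 4, 3.99, 6.49, 2.48 and 2.06 CPM in DKO tumors 1 to 4 and 4.22, 1.71, 1.69 and 2.98 CPM in TKO tumors 1 to 4. The tumors overlapped control liver 4 in both genotypes. Cdc25c, a further CDC25 phosphatase, was the scarcest of the class, at 0.208 ± 0.0972 CPM (SD, n = 4) in controls, 0.816 ± 0.520 in DKO and 0.755 ± 0.490 in TKO tumors (SD, n = 4 each), from 1 to 5 counts per control liver.

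Among the 5 spindle checkpoint genes the median log2 fold change was 1.84 in DKO and 1.24 in TKO tumors, and 4 of the 5 had no overlap between DKO tumors and controls, beside 8.87% of all tested genes. Bub1b, which encodes the checkpoint protein BUBR1 (chr2:118423947-118467328 in mm9, plus strand), had 0.964, 0.861, 0.610 and 1.24 CPM in control livers 1 to 4, 3.60, 5.77, 2.90 and 1.71 CPM in DKO tumors 1 to 4 and 3.44, 2.27, 1.30 and 2.16 CPM in TKO tumors 1 to 4. All 8 tumors were above all 4 controls, although TKO tumor 3 was only just above control liver 4. Bub1b rose by 1.91 (SE 0.418) in DKO tumors (edgeR adjusted p 0.0459) and by 1.61 (SE 0.381) over both genotypes (edgeR adjusted p 0.0479) on the log2 scale. Ttk, the kinase MPS1 that starts checkpoint signalling, had 0.371, 0.123, 0.203 and 0.732 CPM in control livers 1 to 4, 1.69, 3.56, 1.30 and 0.531 CPM in DKO tumors 1 to 4 and 2.41, 0.782, 0.460 and 1.12 CPM in TKO tumors 1 to 4. Here 1 to 10 counts per control liver were measured, and DKO tumor 4 was below control liver 4. The log2 fold change of Ttk in DKO tumors was 2.21 (SE 0.699), with an edgeR adjusted p of 0.0890.

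Bub3, a partner of BUB1 and BUBR1 that is also used outside mitosis, was the member with the most counts and had 29.3, 25.7, 28.5 and 27.5 CPM in control livers 1 to 4, 31.9, 33.4, 33.1 and 34.1 CPM in DKO tumors 1 to 4 and 37.6, 30.3, 30.6 and 33.6 CPM in TKO tumors 1 to 4. All tumors were above all controls, but by a log2 fold change of 0.25 (SE 0.0915) over both genotypes, with an edgeR adjusted p of 0.129. The other 2 genes of the class, the kinase Bub1 and the checkpoint effector Mad2l1, had log2 fold changes of 1.84 (SE 0.650) and 1.21 (SE 0.428) in DKO tumors, and every DKO tumor was above every control in both.

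All 11 genes of the centromere and kinetochore class had higher means in both genotypes. The median log2 fold change was 0.86 in DKO and 0.74 in TKO tumors, and 4 of 11 were higher at an unadjusted p under 0.05 in DKO tumors, beside 12.9% of all tested genes. Nuf2, a subunit of the NDC80 complex that binds microtubules (chr1:171428065-171461595 in mm9, minus strand), had 0.445, 0.615, 0.203 and 0.513 CPM in control livers 1 to 4, 2.91, 4.67, 1.48 and 1.30 CPM in DKO tumors 1 to 4 and 2.53, 0.924, 0.767 and 1.87 CPM in TKO tumors 1 to 4. Every tumor was above every control. Nuf2 rose 5.86-fold in DKO tumors, a log2 fold change of 2.55 (SE 0.558) with an edgeR adjusted p of 0.0457, and 4.53-fold over both genotypes (edgeR adjusted p 0.0479). Control livers had 3 to 7 counts of this gene, so the fold rests on few counts.

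The other subunits of the NDC80 complex had smaller fold changes. Ndc80 had a log2 fold change of 0.86 (SE 0.432) in DKO tumors, Spc25 of 1.28 (SE 0.560) and Spc24 of 0.08 (SE 0.467), with edgeR adjusted p of 0.249, 0.186 and 0.940. The value of Spc24 ran from -0.14 to 0.31 over the alternatives. Among the inner kinetochore genes, Cenpk had 0.667, 0.861, 0.881 and 0.439 CPM in control livers 1 to 4, 0.537, 2.29, 0.887 and 0.472 CPM in DKO tumors 1 to 4 and 0.904, 0.284, 0.537 and 1.19 CPM in TKO tumors 1 to 4. The groups overlapped, and DKO tumor 2 alone stood above the range of the controls by more than 1 CPM. Cenpk had a log2 fold change of 0.30 (SE 0.498) over both genotypes, which was -0.053 without DKO tumor 2. Cenpm and Cenpn also overlapped between the groups, with log2 fold changes of 0.30 (SE 0.518) and 0.42 (SE 0.600) in DKO tumors, which ran from -0.053 to 0.83 and from -0.070 to 0.91 over the alternatives.

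Cenpf, for a large outer kinetochore protein, was at 0.349 ± 0.202 CPM (SD, n = 4) in controls, 1.72 ± 0.944 in DKO and 1.12 ± 0.600 in TKO tumors (SD, n = 4 each), with all tumors above all controls. TKO tumor 3 was only just above control liver 3, at 0.614 and 0.610 CPM from 8 and 9 counts. Control livers had 1 to 9 counts of Cenpf. Its edgeR adjusted p was 0.0521 in DKO and 0.0584 over both genotypes. Knl1, the scaffold of the outer kinetochore, had a log2 fold change of 2.04 (SE 0.712) in DKO tumors and Cenpe, a kinetochore motor, of 1.15 (SE 0.663). Cenpa, the centromeric histone H3 variant, was steady in controls, at 3.17 ± 0.180 CPM, and had 5.15 ± 2.53 CPM in DKO and 6.62 ± 3.33 CPM in TKO tumors (SD, n = 4 each), with edgeR adjusted p of 0.330 and 0.235.

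Of the chromosomal passenger genes, Incenp, the scaffold that carries Aurora B to the inner centromere (chr19:9946787-9974023 in mm9, minus strand), had 2.30, 1.11, 2.44 and 2.64 CPM in control livers 1 to 4, 7.21, 9.18, 4.79 and 4.72 CPM in DKO tumors 1 to 4 and 4.16, 3.20, 3.53 and 4.63 CPM in TKO tumors 1 to 4. All tumors were above all controls, and the 4 DKO tumors were also above the 4 TKO tumors. Incenp rose by 1.58 (SE 0.301) in DKO tumors (edgeR adjusted p 0.0376) and by 1.22 (SE 0.271) over both genotypes (edgeR adjusted p 0.0444) on the log2 scale. Control liver 2, with 1.11 CPM from 9 counts, was the lowest of its group. Birc5, survivin, a subunit of the same complex, had 0.816, 0.615, 1.29 and 0.439 CPM in control livers 1 to 4, 3.53, 7.67, 3.25 and 2.18 CPM in DKO tumors 1 to 4 and 5.55, 2.49, 0.920 and 4.70 CPM in TKO tumors 1 to 4. The DKO tumors were all above the controls, whereas TKO tumor 3 was below control liver 3. Its log2 fold changes were 2.36 (SE 0.578) in DKO and 2.08 (SE 0.577) in TKO tumors, with edgeR adjusted p of 0.0529 and 0.146.

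Cdca8, borealin, the remaining passenger subunit in the list, had 0.742, 0.615, 0.881 and 0.879 CPM in control livers 1 to 4, 1.15, 3.01, 1.01 and 0.825 CPM in DKO tumors 1 to 4 and 1.75, 0.853, 0.690 and 1.34 CPM in TKO tumors 1 to 4. Both tumor groups overlapped the controls, and DKO tumor 2 stood apart. Its log2 fold change over both genotypes was 0.73 (SE 0.406), with an edgeR adjusted p of 0.305. Sgo1, shugoshin, which protects centromeric cohesion, had 0.366 ± 0.122 CPM in controls, 1.47 ± 1.04 in DKO and 1.06 ± 0.582 in TKO tumors (SD, n = 4 each), with no overlap between DKO tumors and controls.

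The 6 kinesin motor genes had a median log2 fold change of 1.35 in DKO and 1.06 in TKO tumors. Kif2c, which encodes MCAK, a kinesin that takes microtubules apart (chr4:116832244-116855244 in mm9, minus strand), had 0.890, 0.369, 0.678 and 0.513 CPM in control livers 1 to 4, 2.76, 3.80, 1.95 and 1.77 CPM in DKO tumors 1 to 4 and 2.65, 1.21, 0.690 and 1.49 CPM in TKO tumors 1 to 4. All DKO tumors were above all controls, and TKO tumor 3 was below control liver 1. Kif2c rose by 2.02 (SE 0.444) on the log2 scale in DKO tumors, with an edgeR adjusted p of 0.0460. Kif18a, a motor that dampens chromosome oscillations, had 0.816, 0.615, 0.813 and 1.03 CPM in control livers 1 to 4, 1.46, 1.82, 1.06 and 0.531 CPM in DKO tumors 1 to 4 and 1.87, 1.42, 1.15 and 1.27 CPM in TKO tumors 1 to 4. In this gene the TKO tumors cleared the controls and the DKO tumors did not, because DKO tumor 4 was the lowest of all 12 libraries, but the difference between the genotypes was 0.25 (SE 0.359) with an edgeR adjusted p of 0.858. Kif11, Kif22, Kif15 and Kifc1 had log2 fold changes of 1.73, 1.37, 1.32 and 1.05 in DKO tumors, none with an edgeR adjusted p under 0.0764.

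Hmmr led the 9 spindle assembly factors. This gene, for a microtubule-binding protein that organises spindle poles (chr11:40514890-40546939 in mm9, minus strand), had 1.04, 0.738, 0.271 and 0.586 CPM in control livers 1 to 4, 3.68, 6.49, 2.19 and 2.59 CPM in DKO tumors 1 to 4 and 5.19, 1.71, 0.844 and 2.24 CPM in TKO tumors 1 to 4. Its DKO tumors were all above the controls, and TKO tumor 3 was below control liver 1. The rise in DKO tumors was 5.65-fold, a log2 fold change of 2.50 (SE 0.592) with an edgeR adjusted p of 0.0495, just under the threshold. Nusap1, Ckap2l, Tpx2 and Ckap2, which bind or nucleate spindle microtubules, had log2 fold changes of 2.13, 1.77, 1.64 and 1.64 in DKO tumors, with edgeR adjusted p between 0.0521 and 0.0775. Dlgap5 and Tacc3, further spindle proteins, had 1.50 and 0.98.

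Haus4 was the exception of the list. It encodes a subunit of augmin, the complex that nucleates microtubules from the sides of existing ones (chr14:55160622-55173198 in mm9, minus strand), and it had 16.2, 22.7, 17.6 and 19.0 CPM in control livers 1 to 4, 9.05, 11.2, 11.2 and 9.08 CPM in DKO tumors 1 to 4 and 16.5, 16.1, 19.5 and 16.4 CPM in TKO tumors 1 to 4. The 4 DKO tumors were below all 8 other libraries, and the TKO tumors lay within or at the edge of the control range. In DKO tumors Haus4 fell by 0.90 on the log2 scale (SE 0.143, edgeR adjusted p 0.0292), the smallest adjusted p of any member in that comparison. In TKO tumors the log2 fold change was -0.14 (SE 0.141), with an edgeR adjusted p of 0.668. Unlike most of the list, Haus4 was abundant in control livers, with 185 to 260 counts. Over both genotypes it was -0.52 (SE 0.120), with an edgeR adjusted p of 0.0456. Ckap5, the microtubule polymerase, also abundant, had 9.79, 8.97, 9.08 and 11.3 CPM in control livers 1 to 4, 14.2, 14.9, 12.7 and 11.5 CPM in DKO tumors 1 to 4 and 11.0, 10.7, 8.90 and 10.8 CPM in TKO tumors 1 to 4. Its DKO tumors were above both other groups, with DKO tumor 4 only just above control liver 4. Neither edgeR nor DESeq2 (adjusted p 0.0593) called Ckap5 in DKO tumors.

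In the chromosome structure class, Mki67 had the largest log2 fold change of all 57 members in DKO tumors by edgeR. The gene, whose product Ki-67 coats mitotic chromosomes and marks cycling cells in histology (chr7:142881471-142908062 in mm9, minus strand), had 2.00, 1.48, 0.678 and 1.98 CPM in control livers 1 to 4, 11.7, 23.8, 6.09 and 4.30 CPM in DKO tumors 1 to 4 and 10.3, 4.76, 2.76 and 8.28 CPM in TKO tumors 1 to 4. Every tumor was above every control, and DKO tumor 2 held the highest level. Mki67 rose 7.44-fold in DKO tumors (log2 fold change 2.89 (SE 0.595), edgeR adjusted p 0.0425) and 5.62-fold over both genotypes (edgeR adjusted p 0.0444). In TKO tumors its log2 fold change was 2.09 (SE 0.587), with an edgeR adjusted p of 0.146.

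Top2a, the DNA topoisomerase that untangles sister chromatids, had 4.60, 1.60, 2.58 and 5.78 CPM in control livers 1 to 4, 15.9, 28.2, 10.8 and 6.60 CPM in DKO tumors 1 to 4 and 15.5, 4.41, 2.84 and 11.0 CPM in TKO tumors 1 to 4. DKO tumors were all above the controls, and TKO tumors 2 and 3 were within the control range. The log2 fold change was 2.05 (SE 0.591) in DKO tumors with an edgeR adjusted p of 0.0752. Smc4, a core subunit of condensin, had 7.86, 7.13, 6.98 and 6.22 CPM in control livers 1 to 4, 13.2, 20.8, 10.2 and 7.66 CPM in DKO tumors 1 to 4 and 14.5, 6.96, 6.14 and 10.7 CPM in TKO tumors 1 to 4. Its tumors overlapped the controls, with a log2 fold change over both genotypes of 0.66 (SE 0.286), the smallest of the class. The other condensin genes, Smc2, Ncapd2, Ncapg and Ncaph, had log2 fold changes of 1.13, 0.83, 1.31 and 1.66 in DKO tumors.

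**Figure D4:**
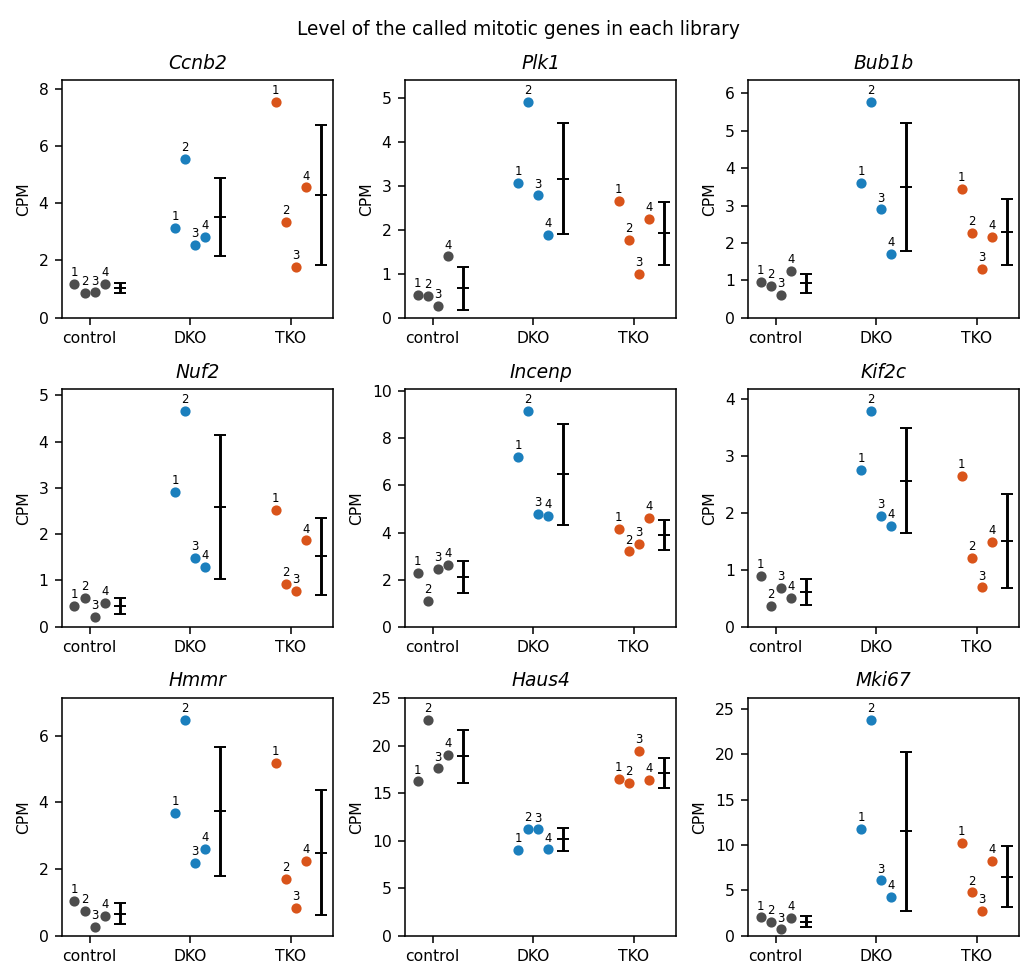
CPM (y axis, from 0) of the 9 mitotic genes called by edgeR in any comparison, in control livers (grey), DKO tumors (blue) and TKO tumors (orange). Each numbered point is 1 library, and the bar beside each group is its mean with 1 SD (n = 4). In Ccnb2, Bub1b, Nuf2, Incenp and Mki67 all tumors are above all controls, and in Haus4 the 4 DKO tumors are below all other libraries.

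Of the 4 genes of anaphase and mitotic exit none passed edgeR's test in any comparison. In DKO tumors 2 were higher at an unadjusted p under 0.05, beside 12.9% of all tested genes. DESeq2 called Espl1 in DKO tumors (adjusted p 0.0446) and Cdc20 over both genotypes (adjusted p 0.0181). Cdc20, the activator of the anaphase-promoting complex, had 1.11, 1.72, 0.949 and 2.56 CPM in control livers 1 to 4, 2.76, 5.85, 2.84 and 2.48 CPM in DKO tumors 1 to 4 and 4.34, 4.62, 2.84 and 2.91 CPM in TKO tumors 1 to 4. The TKO tumors were all above the controls, while DKO tumor 4 was just below control liver 4. Cdc20 had log2 fold changes of 1.13 (SE 0.382) in DKO and 1.22 (SE 0.382) in TKO tumors (edgeR adjusted p 0.104 and 0.168). Pttg1, securin, the inhibitor of separase, was the only member besides Haus4 with a lower mean in both genotypes, and had 12.3, 4.06, 4.68 and 2.71 CPM in control livers 1 to 4, 6.52, 5.62, 4.02 and 4.66 CPM in DKO tumors 1 to 4 and 5.07, 2.13, 3.99 and 7.76 CPM in TKO tumors 1 to 4. Control liver 1 was the highest library, and the rest of the groups overlapped. The log2 fold change over both genotypes was -0.27 (SE 0.395), and it was 0.38 without control liver 1. Espl1, separase itself, and Ube2c, the ubiquitin-conjugating enzyme of the anaphase-promoting complex, had log2 fold changes of 1.41 (SE 0.460) and 1.08 (SE 0.509) in DKO tumors.

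Of the remaining kinases, Pbk, a mitotic kinase also called TOPK, had 1.33, 0.492, 1.15 and 1.32 CPM in control livers 1 to 4, 4.83, 11.9, 3.37 and 1.71 CPM in DKO tumors 1 to 4 and 5.55, 0.924, 0.920 and 3.36 CPM in TKO tumors 1 to 4. The DKO tumors cleared the controls and TKO tumors 2 and 3 did not. Its log2 fold change was 2.30 (SE 0.695) in DKO and 1.29 (SE 0.692) in TKO tumors, with edgeR adjusted p of 0.0821 and 0.382. Melk, a kinase of the AMPK family expressed in dividing cells, had 1.48, 0.369, 1.42 and 0.805 CPM in control livers 1 to 4, 3.07, 4.19, 1.77 and 0.943 CPM in DKO tumors 1 to 4 and 2.89, 1.07, 0.460 and 1.04 CPM in TKO tumors 1 to 4, with overlap in both genotypes. Nek2, a centrosome kinase, had 3.97 ± 2.30 CPM in controls, 10.6 ± 5.24 in DKO and 7.60 ± 2.72 in TKO tumors (SD, n = 4 each) and an edgeR adjusted p of 0.0810 in DKO tumors.

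Between the tumor genotypes no member passed edgeR's quasi-likelihood test, which called 0.0% of all tested genes. In TKO against DKO tumors 49 of the 57 members had the lower mean, with a median log2 fold change of -0.44 against 0.01 over all tested genes, but the median was -0.01 without DKO tumor 2 and -0.07 with the covariate from sex-linked genes. As said above, that covariate rests on few Xist counts and does not mark a difference in sex. At an unadjusted p under 0.05, Incenp and Ckap5 were lower in TKO tumors (3.84% of all tested genes) and Haus4 higher (5.16%). These were also the members whose 4 TKO and 4 DKO values did not overlap, 2 lower beside 2.12% of all tested genes and 1 higher beside 2.75%. Haus4 had a log2 fold change of 0.76 (SE 0.142) (edgeR adjusted p 0.281), Incenp of -0.73 (SE 0.290) (0.517) and Ckap5 of -0.36 (SE 0.139) (0.504). DESeq2 called Haus4 higher in TKO tumors, at an adjusted p of 0.00290, where it called 0.1% of its genes higher, and over all alternatives the adjusted p of Haus4 ran from 0.00290 to 0.542. For Mki67 the difference was -0.81 (SE 0.534), for Plk1 -0.71 (SE 0.452) and for Ccnb2 0.30 (SE 0.391).

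A second list of 99 mitotic genes outside the 57, of which 94 were tested, had a smaller median. It was 0.28 on the log2 scale in DKO tumors, beside 1.40 for the 57, and 34 of the 94 were higher and 3 lower at an unadjusted p under 0.05, beside 12.9 and 11.1% of all tested genes. By edgeR's test 2 of them were higher in DKO tumors, Prc1, the crosslinker of midzone microtubules, with a log2 fold change of 2.25 (SE 0.445, adjusted p 0.0424), and Pkmyt1, an inhibitory kinase of CDK1, with 2.66 (SE 0.594, adjusted p 0.0468). Those 2 of 94 stand beside 1.41% of all tested genes called higher, and so few calls say little about the list. Over both genotypes the same 2 and Kif20a, a cytokinesis kinesin, were called higher, beside 1.25% of all tested genes. In TKO tumors and between genotypes none were, where edgeR called 0.0864 and 0.0% of all tested genes in either direction. At an unadjusted p under 0.05, 19 were higher and 2 lower in TKO tumors (9.94 and 6.33% of all tested genes). Between genotypes 4 were higher and 1 lower at that threshold (5.16 and 3.84%). DESeq2 called 17 of the list higher and 1 lower in DKO tumors (3.41 and 2.83% of its genes), 5 higher in TKO tumors (1.2%) and 0 between genotypes. The 20 tested genes of the kinesin and spindle group had a median of 1.09 in DKO tumors, the 14 other entry regulators 0.79, the 30 other kinetochore genes 0.59, the 13 cohesin and condensin II genes 0.23 and the 17 genes of the anaphase-promoting complex 0.02.

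Levels can be compared between genes only per length, as RPKM, the CPM divided by exon length in kilobases. In control livers Bub3 was highest, at 13.5 ± 0.758 RPKM (SD, n = 4), followed by Haus4 at 11.9 ± 1.76, which did not differ beyond their spread. Spc24 at 3.08 ± 0.958, Cenpm at 3.07 ± 1.62 and Pttg1 at 2.97 ± 2.16 RPKM came next and overlapped each other. Knl1 was lowest, at 0.0285 ± 0.0168 RPKM, beside Cenpf at 0.0307 ± 0.0178. The median over members was 0.374 RPKM in controls, 1.04 in DKO and 0.792 in TKO tumors. Bub3 and Haus4 stayed the 2 highest in both tumor groups, at 16.1 ± 0.454 and 6.39 ± 0.780 RPKM in DKO and 16.1 ± 1.66 and 10.8 ± 1.00 RPKM in TKO tumors.

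The members varied together from library to library. Taking Mki67 as the reference, the 5 tested genes most like it over the 12 libraries by Pearson's r of log2 CPM were Nuf2 (0.983), Bub1b (0.979) and Tpx2 (0.978), all members, then Fnbp1l (0.972) and Racgap1 (0.962), which are not. Over the other 56 members the median r was 0.867, and 0.815 once group means were taken out, against 0.012 and -0.0075 over all tested genes. In all, 40 of the 56 had an r above 0.8, as did 2.03% of all tested genes. The lowest values were those of Haus4 (-0.61, and 0.0030 within groups), Pttg1 (0.165), Spc24 (0.388), Cenpk (0.405) and Cenpn (0.405). These are descriptions over 12 libraries, which share 1 depth and normalization factor per library and 3 group means.

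How reads that fit several places were counted, and whether strand was used, is not given in the sources used here. In the mm9 annotation 11 members share exon bases with another gene (Ccna2, Cdc25b, Cdca8, Kif18a, Nusap1, Ckap2l, Ckap5, Top2a, Ncapg, Cdc20 and Ube2c), and their values may include reads of that gene, such as Exosc9 for Ccna2 or Tnnc2 for Ube2c. None of the 9 members called by edgeR is among them, whereas DESeq2 also called Ccna2, Nusap1, Top2a, Ckap2l and Cdc25b, which are, in DKO tumors.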

How the data were processed

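Poly(A) RNA of 12 snap-frozen livers and liver tumors was sequenced on the SOLiD platform. Reads were mapped by the authors to mm9 (BWA) and assigned to genes (FeatureCounts). The deposited table holds these raw counts. Versions of both programs, whether strand was used and how reads with several alignments were handled are not given in the sources used here. Symbols came from the RefSeq gene table (GRCm38.p6), which matched 24191 of 26301 rows, and exon lengths and mm9 positions from the mm9 gene annotation. Promoters came from RefSeq (GRCm38.p6).

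Genes were filtered with filterByExpr (13882 kept), normalized by TMM and tested with edgeR 4.0.16 (R 4.3.3), using the quasi-likelihood test with 1 mean per group over all 12 libraries and Benjamini-Hochberg adjustment over all genes tested at 0.05. The standard error is the log2 fold change divided by the square root of F. Log2 CPM used a prior count of 2. The scripts were tested on simulated data. Groups came from the labels, which name separate tumors and livers, and p-values measure the spread between these samples. Alternatives used DESeq2 1.42.0, limma 3.58.1 voom with quality weights, other scalings and filters, a sex-linked covariate, a replicate block, another threshold, and each library left out in turn.

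The members and all gene lists were chosen with earlier results of these data known. Values in every library are given for members called in any comparison, for those with the highest and lowest log2 fold change over both genotypes in each role class, and for Mki67, Ccnb1, Cdk1, Top2a, Plk1 and Aurka. Ckap5 was added after its values were seen, as were the other members given by a fold change or mean. 1 of the marker lists is not reported here.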

Additional observations from a re-analysis of the deposited data

Results flagged for a closer look

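In 78 groups of 4 libraries, the gap between the highest or lowest library and its nearest neighbour was compared with the range of the group (Dixon's 95% critical value 0.829), and 5 groups were above it. Chance flags about 1 in 20 groups. Ccna2 in control liver 4 was 3.66 CPM beside 1.29 to 1.48 CPM in the other controls, a gap of 0.869 of the range. Incenp in control liver 2 was 1.11 CPM beside 2.30 to 2.64 CPM (0.838). Pbk in control liver 2 was 0.492 CPM beside 1.15 to 1.33 CPM (0.844). Cdc20 in DKO tumor 2 was 5.85 CPM beside 2.48 to 2.84 CPM (0.843). Haus4 in TKO tumor 3 was 19.5 CPM beside 16.1 to 16.5 CPM in the other TKO tumors (0.854).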

How the results depend on the processing

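The number of members called in DKO tumors (8) was 28 with DESeq2, 31 with voom and quality weights, 16 with only the libraries compared (54 members tested), 14 with edgeR's newer dispersion estimate (chosen after seeing the data), 27 at an adjusted p of 0.1, 5 with at least 10 counts in every library (23 members tested), and 0 with total counts as the only scaling or a sex-linked covariate. Over both genotypes (6) the same alternatives gave 29, 24, no separate value, 11, 22, 3, 0 and 0. In TKO tumors (0) DESeq2 gave 4 and an adjusted p of 0.1 gave 1, and between genotypes (0) DESeq2 gave 1. Apart from fewer genes or samples in the fit, the cause was not tested. Only for DESeq2 is the share of all genes called given above. For the other alternatives, the replicate block and the fits with 1 library left out it is not given. Those counts do not set the members apart from other genes. Leaving out each library in turn gave 0 to 16 calls in DKO tumors, 0 to 2 in TKO tumors, 0 to 23 over both genotypes and 0 between genotypes, and medians of 1.00 to 1.68, 0.69 to 1.32, 1.01 to 1.51 and -0.70 to -0.01. Under the other alternatives the medians ran from 1.01 to 1.54 in DKO tumors, 0.86 to 1.25 in TKO tumors, 0.93 to 1.35 over both genotypes and -0.48 to -0.07 between genotypes, where -0.07 came with the sex-linked covariate.

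On the log2 scale over both genotypes, Cenpk (0.30) was -0.040 with voom, and with each library left out it ran from -0.053 (without DKO tumor 2) to 0.43. Pttg1 (-0.27) ran from -0.51 to 0.38 (without control liver 1). The other alternatives for the named members over both genotypes kept their direction, with 431 on the same side of the threshold, 46 newly past it and 76 no longer past it.

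With the replicate block the calls were 12 in DKO tumors, 0 in TKO tumors, 5 over both genotypes and 0 between genotypes. Same-numbered libraries come from different mice and correlated at -0.174 to 0.370. Letters in the sample names recur within and between groups, and the labels do not say what they stand for. Control livers 2 and 3 were the most alike within a group, with a mean chi-square of 19.9 per gene between their counts. All other pairs within a group had at least 62.7. Whether some samples share a litter or batch was not tested. In controls 24 of the 57 members had a mean under 1 CPM, among them 5 of the 7 called higher in DKO tumors, and the part of depth in the calls was not tested.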
